A study of Mus musculus with 8 samples.

Results

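The genes described here are 48 mouse genes of antioxidant defence, chosen by name from a list of superoxide dismutases, peroxidases, thioredoxin, glutaredoxin and glutathione genes and their regulators, among 31053 gene identifiers measured. They were followed in 4 WT and 4 Cd36KO samples of brown adipose tissue (BAT), the heat-producing fat, profiled by bulk RNA-seq. All 8 libraries carried the labels C57BL6/J for strain, 8 weeks for age and Brown Adipose Tissue for tissue, and no treatment was given for either group. CD36 is a scavenger receptor for lipids, and the comparison asked how its loss changed the BAT transcriptome. The labels name the genotype only as Cd36KO. The study mentions mice with a germline deletion and mice with a deletion restricted to myeloid cells by a Csf1r-driven Cre, and attributes its BAT transcriptome to the second, so a fall of Cd36 in adipocytes would not be part of that model. The legend for that transcriptome gives the labelled age and counts the replicates of each group as mice, while the methods give a later age at sacrifice for the myeloid-specific mice and state male mice and a harvest after fasting. The labels themselves do not tie a library to an animal. The count column of 1 Cd36KO library has no replicate number, and it is called the unnumbered Cd36KO library.

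Cells that burn fuel in mitochondria form superoxide, which superoxide dismutases turn into hydrogen peroxide. Most glutathione peroxidases remove peroxides at the expense of glutathione, a small thiol that cells make from amino acids and recycle with NADPH. Most peroxiredoxins do the same with electrons from thioredoxin, which thioredoxin reductases recharge. Glutaredoxins reduce protein thiols or carry iron-sulfur clusters, glutathione transferases attach glutathione to reactive molecules, and the transcription factor NRF2 (gene Nfe2l2), held in check by KEAP1, switches many of these genes on. In brown fat the mitochondrial branch is of particular interest, since heat production depends on a large flow of electrons.

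The coding sequences around the peroxidatic residue are shown because they separate glutathione peroxidases that need selenium from those that do not, and the gene of this family that rose in Cd36KO belongs to the second kind. Sequences and codon numbers come from the GENCODE M21 coding annotation on GRCm38, at chr9:108339436-108339468 (plus strand) for Gpx1, chr11:54907241-54907273 (plus strand) for Gpx3, chr10:80054722-80054754 (plus strand) for Gpx4, chr4:108403415-108403447 (minus strand) for Gpx7 and chr13:113045646-113045678 (minus strand) for Gpx8. Capitals mark the codon of the active residue, TGA read as selenocysteine in the first 3 genes and a cysteine codon in Gpx7 and Gpx8.
Gpx1: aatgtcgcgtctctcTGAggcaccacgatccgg
Gpx3: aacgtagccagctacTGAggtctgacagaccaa
Gpx4: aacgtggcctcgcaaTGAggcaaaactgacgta
Gpx7: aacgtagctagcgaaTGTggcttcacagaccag
Gpx8: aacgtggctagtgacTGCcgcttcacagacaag
The codon is number 47 in Gpx1, 73 in Gpx3, 129 in Gpx4, 56 in Gpx7 and 79 in Gpx8. Numbers are counted from the start codon of the longest annotated coding sequence of each gene. For Gpx4 that form has 253 codons, and the number can differ in shorter forms.

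NRF2 binds the antioxidant response element, whose core was searched as TGACNNNGC on both strands. RefSeq windows on GRCm38.p6, from 250 bases before to 50 bases after each annotated start, were at hand for 40 of the 48 genes, 52 windows in all. The core was in 9 of the 52 windows (17.3%), 1 window each for Gsta3, Nfe2l2, Srxn1, Gstm5, Gclm, Prdx1, Mgst1, Txnrd1 and Sod1. Of all 32851 windows in the table, 12.4% held it. Its letters overlap those of the AP-1 site TGACTCA. The stretches of the genes followed library by library in the results are printed with the core in capitals, at chr1:21240444-21240492 (plus strand) for Gsta3, chr3:107895792-107895840 (plus strand) for Gstm5, chr3:122245403-122245451 (plus strand) for Gclm and chr16:90220686-90220734 (plus strand) for Sod1. In Gclm and Sod1 the core lies on the opposite strand.
Gsta3: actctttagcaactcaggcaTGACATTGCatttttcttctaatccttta
Gstm5: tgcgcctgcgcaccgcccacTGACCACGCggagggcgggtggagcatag
Gclm: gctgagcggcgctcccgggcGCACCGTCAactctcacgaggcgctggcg
Sod1: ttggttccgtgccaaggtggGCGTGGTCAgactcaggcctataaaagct
A match is a description of letters and not evidence of binding.

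Txnip, which encodes a binding partner and inhibitor of thioredoxin, is a textbook target of the glucose-sensing factors ChREBP and MondoA. A single pattern for the carbohydrate response element, CACGNG and CNCGNG set 5 bases apart, was searched on both strands after the Txnip values had been seen. Other forms of the element were not searched. The pattern occurred in the Txnip window and in no other of the 52. It was present in 0.365% of all windows. Its position was -85 to -69 from the start, on the strand of the gene, and it stands in capitals in the stretch at chr3:96557852-96557908 (plus strand).
Txnip: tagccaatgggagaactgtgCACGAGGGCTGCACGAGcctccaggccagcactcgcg

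Total counts per library ranged from 2679785 to 4097953. Cd36 was lower in each Cd36KO library than in any WT library (2918 ± 454 against 2087 ± 216 normalized counts, SD, n = 4 per genotype, p = 0.0286 in an exact two-sided permutation test) but stayed abundant, and its DESeq2 adjusted p of 0.0602 did not pass 0.05. Normalized counts are counts divided by the library's size factor. The label Stromal Vascular Fraction, given for cell type, stood against the markers. The adipocyte gene Adipoq averaged 4898 normalized counts in WT and the stromal gene Pdgfra 39.8, the leukocyte gene Ptprc 39.9 and the macrophage gene Adgre1 6.89. Summed marker lists ranged in WT from 26949 to 48490 normalized counts for adipocytes, 1785 to 2241 for stroma and 638 to 1010 for macrophages. The leukocyte and lymphocyte list ranged from 22.8 to 55.2. Xist had between 772 and 1588 counts and Eif2s3y, Kdm5d and Uty on the Y chromosome had 0 in every library, with at most 3 counts of Ddx3y, also on the Y chromosome, against the male sex stated. Summed skeletal muscle markers ranged from 1362 to 85064 normalized counts in WT, highest in WT replicate 1, and from 479 to 10994 in Cd36KO (18 genes, exact two-sided permutation p = 0.143). Summed white fat markers ranged from 812, in WT replicate 1, to 4658 in WT and from 535 to 730 in Cd36KO (exact permutation p = 0.0286), with 8 of 14 genes past the DESeq2 threshold, all lower, and Hoxc10 and Tcf21 at 0 in all libraries. Summed brown fat markers ranged from 18371 to 23821 in WT and from 32378 to 40865 in Cd36KO (13 genes, exact permutation p = 0.0286), with 4 genes past the threshold, all higher. The part of these markers in the results below was not tested. In bulk tissue, fewer cells of a type and less RNA per cell cannot be told apart.

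Of the 48 genes, 46 had enough counts for an adjusted p, and 5 passed the DESeq2 threshold of 0.05. Gpx8 and Txn2 were higher in Cd36KO, and Txnip, Gsta3 and Mgst3 were lower. Over all genes with an adjusted p, 2.95% passed, 1.42% higher and 1.53% lower, so the 5 of 46 (10.9%) stood above that background, which carries no test here. The remaining members without an adjusted p, Gstp1 and Nqo1, had at most 8 and 6 counts in any library. Fold changes of the members went in both directions. The median log2 fold change was 0.11, with 29 positive and 17 negative values, against -0.0088 and 49.2% positive over all genes. The members' median was 0.0048 without WT replicate 1 and -0.056 over the 6 libraries numbered 2 to 4. At an unadjusted DESeq2 p under 0.05 there were 12 of 46 members, beside 15.6% of all genes. With the edgeR quasi-likelihood test none of 45 members tested passed, where 0.143% of all genes did, and 10 had an unadjusted p under 0.05, beside 16.1% of all genes. The groups did not overlap in 3 of the 39 members with a mean of at least 50 normalized counts, Gpx8 and Txn2 higher and Gstm5 lower. Of all genes at that level 10.9% were separated in this way, 6.91% higher and 3.96% lower.

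**Figure D1:**
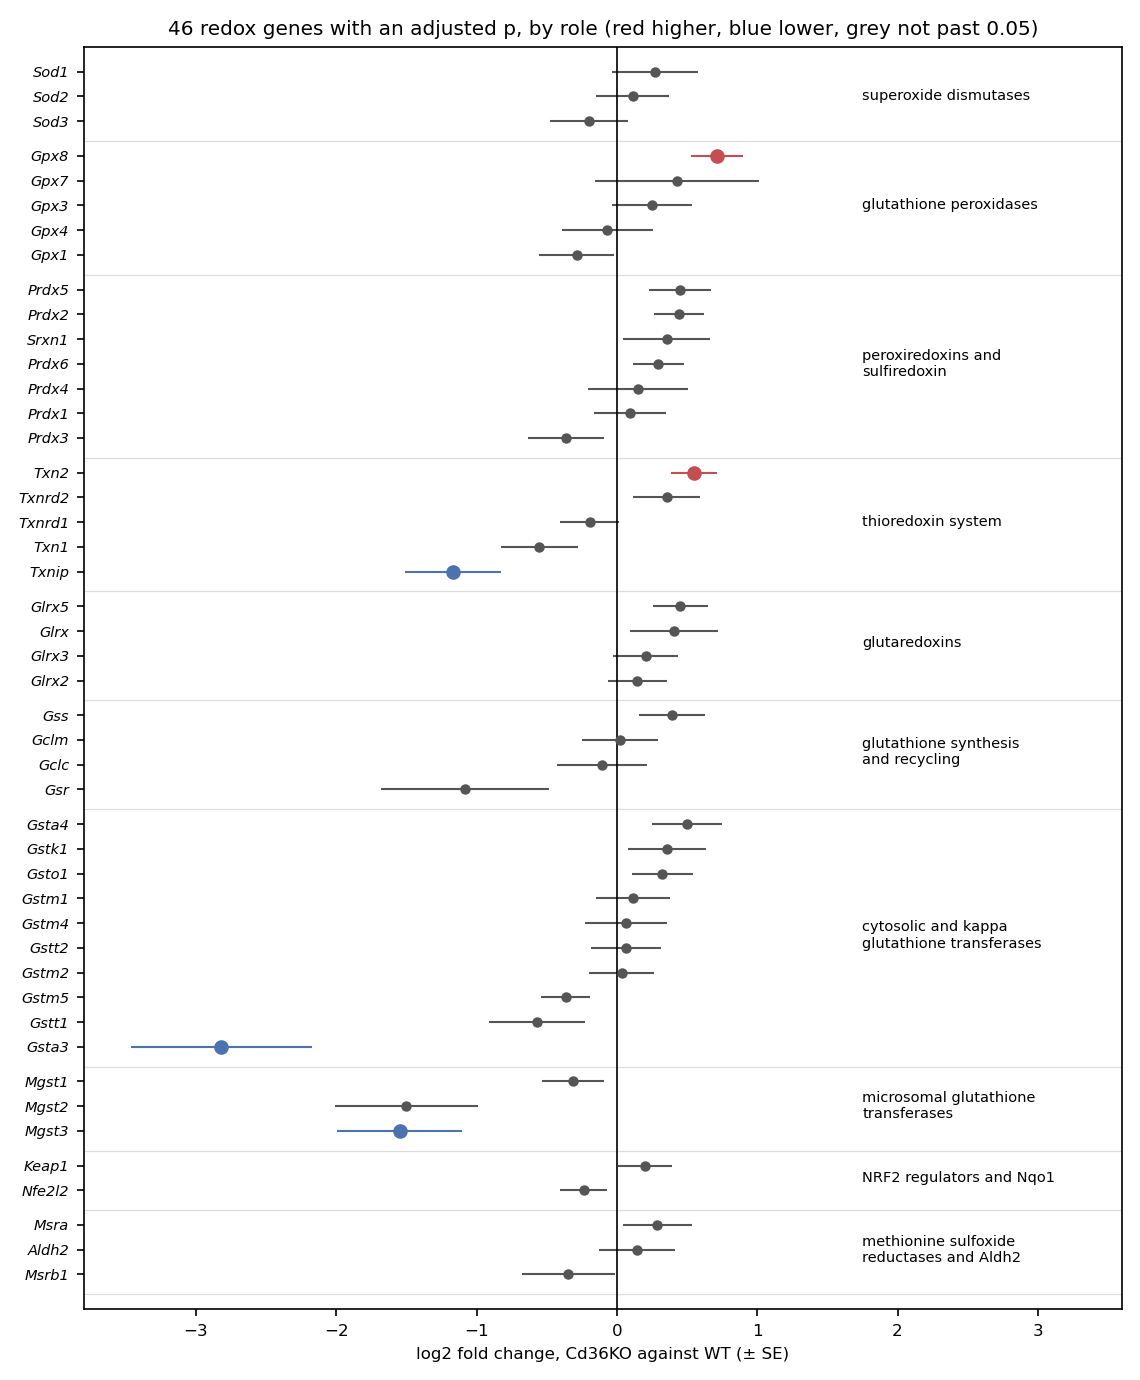
Log2 fold change of Cd36KO against WT on the x axis, with bars of 1 standard error, for the 46 genes with an adjusted p, ordered by role on the y axis. Gpx8 and Txn2 (red) passed the DESeq2 threshold at 0.71 and 0.55, and Txnip, Mgst3 and Gsta3 (blue) at -1.17, -1.55 and -2.82, while most other genes lay between -0.6 and 0.6.

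Levels differed widely between the members. Gpx3, the peroxidase secreted into plasma and tissue fluid, took the largest share, 0.65% of a library's counts on average and a mean level of 11259 normalized counts per kilobase of exon. Sod1 followed at 1397 and Gpx1 at 993 normalized counts per kilobase, then Prdx5 at 719 and Aldh2 at 492. Gsr had 4.60, Gsta3 4.58 and Mgst2 3.95 normalized counts per kilobase. The kit's coverage along transcripts is not given in the sources used here, which limits levels per length.

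No superoxide dismutase passed the test. Sod1, the cytosolic copper-zinc enzyme, had normalized counts of 1935, 5196, 5784 and 7172 in WT replicates 1 to 4. In Cd36KO it had 7344 in the unnumbered library and 5041, 4876 and 7012 in replicates 2 to 4. WT replicate 1 lay far below all other libraries and the rest of the WT values overlapped Cd36KO. The change from WT was 0.27 on the log2 scale (SE 0.31, DESeq2 adjusted p = 0.747), and it was -0.0978 over the 6 libraries numbered 2 to 4. Sod2, the manganese enzyme of the mitochondrial matrix, had a log2 fold change of 0.11 (SE 0.26), and its WT values, 535 to 1531 normalized counts, enclosed the Cd36KO range of 946 to 1132. Sod3, the extracellular enzyme, had a log2 fold change of -0.20 (SE 0.28). Ccs, the copper chaperone that loads SOD1, was measured among the wider redox genes and did rise. It had 146, 170, 140 and 204 normalized counts in WT, and 289, 228, 280 and 293 in Cd36KO, with no overlap. Its log2 fold change was 0.72 (SE 0.19, DESeq2 adjusted p = 0.0111, edgeR adjusted p = 0.109).

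Among the 5 glutathione peroxidases only Gpx8 passed the test. GPX8 is a peroxidase of the endoplasmic reticulum membrane with a cysteine in place of selenocysteine, as the codon shown above records. Gpx8 (ENSMUSG00000021760, chromosome 13, 113042753 to 113046410, minus strand, protein-coding) had 277, 258, 234 and 296 normalized counts in WT replicates 1 to 4. The unnumbered Cd36KO library had 556, and replicates 2 to 4 had 397, 450 and 347. The unnumbered library was the highest of all and the lowest Cd36KO value exceeded the highest WT value. The mean went from 266 ± 26.4 to 438 ± 89.5 (SD, n = 4 each), a 1.64-fold rise. This gave 0.71 as log2 fold change (SE 0.19, DESeq2 adjusted p = 0.0123). The exact two-sided permutation p was 0.0286, the smallest that 70 arrangements of 4 against 4 allow. The edgeR adjusted p was 0.115. The DESeq2 call was lost without WT replicate 2 (0.106), WT replicate 3 (0.0825), Cd36KO replicate 3 (0.0596) or the unnumbered library (0.0999), and over all 16 alternatives the fold change stayed between 0.58 and 0.86 with adjusted p from 0.00512 to 0.463. Cdc20b, which overlaps Gpx8 on the opposite strand, had 0 counts in all libraries.

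The other glutathione peroxidases did not pass. Gpx3 ranged from 10578 to 29917 normalized counts in WT and from 15032 to 26437 in Cd36KO, with a log2 fold change of 0.25 (SE 0.29). Gpx1, the cytosolic and mitochondrial enzyme, ranged from 860 to 2546 in WT and from 1152 to 1393 in Cd36KO, a log2 fold change of -0.29 (SE 0.27). Gpx4, which reduces lipid peroxides in membranes and guards against ferroptosis, had -0.07 (SE 0.33). In all 3 the WT libraries spread as widely as or more widely than the Cd36KO libraries. Gpx7, the other peroxidase with a cysteine and a neighbour of GPX8 in the endoplasmic reticulum, had only 2 to 23 counts per library and a log2 fold change of 0.43 (SE 0.58, DESeq2 adjusted p = 0.800).

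Peroxiredoxins and sulfiredoxin (Srxn1, which repairs over-oxidized peroxiredoxins) gave 6 positive values of 7, a median log2 fold change of 0.30, and no call. Prdx5, a peroxiredoxin of mitochondria, peroxisomes and cytosol, had 937, 1215, 1253 and 1799 normalized counts in WT. In Cd36KO it had 2256 in the unnumbered library and 1356, 1656 and 1831 in replicates 2 to 4. WT replicate 4 reached into the Cd36KO range. The estimated log2 change was 0.45 (SE 0.22, DESeq2 adjusted p = 0.295), and without WT replicate 4 it was 0.64 with an adjusted p of 0.0222, 1 of 2 alternatives among 16 that passed the threshold. It was 0.31 without the unnumbered library and 0.19 over the 6 libraries numbered 2 to 4. Prdx2, the abundant peroxiredoxin of red cells, had 0.44 (SE 0.18), an unadjusted DESeq2 p of 0.0122 and an adjusted p of 0.160. Summed red blood cell markers were highest in the unnumbered Cd36KO library, 16259 normalized counts against 4615 to 8770 in the others, and Prdx2 was highest there too at 1086. Srxn1 had 0.35 (SE 0.31), Prdx6 0.30 (SE 0.18), Prdx4 0.15 (SE 0.35) and Prdx1 0.09 (SE 0.26). Prdx3, confined to mitochondria, was the negative member with -0.36 (SE 0.27), where the unnumbered library stood at 65.7 normalized counts and the other Cd36KO libraries at 131 to 135.

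The thioredoxin system held a rise and a fall. Thioredoxin 2 is the thioredoxin of mitochondria, where it feeds PRDX3 and PRDX5. Txn2 (ENSMUSG00000005354, chromosome 15, 77915047 to 77929006, minus strand, protein-coding) had 639, 805, 829 and 788 normalized counts in WT replicates 1 to 4. Cd36KO had 1318 in the unnumbered library, and replicates 2 to 4 had 911, 1099 and 1154. The groups did not overlap. The mean went from 765 ± 85.9 to 1120 ± 168 (SD, n = 4 each), a 1.46-fold rise with a log2 fold change of 0.55 (SE 0.16, DESeq2 adjusted p = 0.0329). The exact two-sided permutation p was 0.0286 and the edgeR adjusted p 0.159. With independent filtering off the DESeq2 adjusted p was 0.0579. With a muscle marker score as covariate it was 0.167, at a log2 fold change of 0.58. Leaving out WT replicate 4 or Cd36KO replicate 2 kept the call, and leaving out WT replicate 1 (0.0857), 2 (0.137) or 3 (0.0814), the unnumbered library (0.196) or Cd36KO replicate 3 (0.0989) or 4 (0.144) did not. The fold change ranged from 0.38 to 1.08 over the 16 alternatives, with adjusted p from 0.0129 to 0.681. Txnrd2, the mitochondrial reductase that recharges TXN2, had a log2 fold change of 0.36 (SE 0.24, DESeq2 adjusted p = 0.501).

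Txnip (ENSMUSG00000038393, chromosome 3, 96557957 to 96561883, plus strand, protein-coding) fell. Besides blocking thioredoxin, its product restrains glucose uptake. It had 1105, 1284, 594 and 1408 normalized counts in WT replicates 1 to 4. The unnumbered Cd36KO library had 175, and replicates 2 to 4 had 552, 580 and 648. WT replicate 3 lay between Cd36KO replicates 3 and 4, so the groups overlapped, and the unnumbered library was far below the rest. The mean went from 1098 ± 358 to 489 ± 213 (SD, n = 4 each). The change from WT was -1.17 on the log2 scale (SE 0.34, DESeq2 adjusted p = 0.0316), a ratio of 0.445. The exact two-sided permutation p was 0.0571 and the edgeR adjusted p 0.148. Without the unnumbered library the fold change was -0.89 with an adjusted p of 0.0537. The call was also lost without WT replicate 1 (0.308), 2 (0.158) or 4 (0.217) or Cd36KO replicate 2 (0.182). With a muscle or white fat marker score as covariate the fold change was -1.34 or -1.59, with DESeq2 adjusted p of 0.301 and 0.486. The adjusted p over the 16 alternatives ran from 0.00901 to 0.486. An antisense gene at the locus, Gm15441, had 21 counts in all libraries together.

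The cytosolic partners did not pass. Txn1 had 192 to 270 normalized counts in WT and 85.8, 177, 158 and 247 in Cd36KO, lowest again in the unnumbered library. Its log2 fold change was -0.55 (SE 0.28, DESeq2 adjusted p = 0.303, exact two-sided permutation p = 0.0571). Txnrd1, the cytosolic reductase, had -0.19 (SE 0.21). So in the point estimates the mitochondrial thioredoxin and reductase were positive and the cytosolic thioredoxin and reductase negative, though only Txn2 passed and the difference between compartments was not tested.

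**Figure D2:**
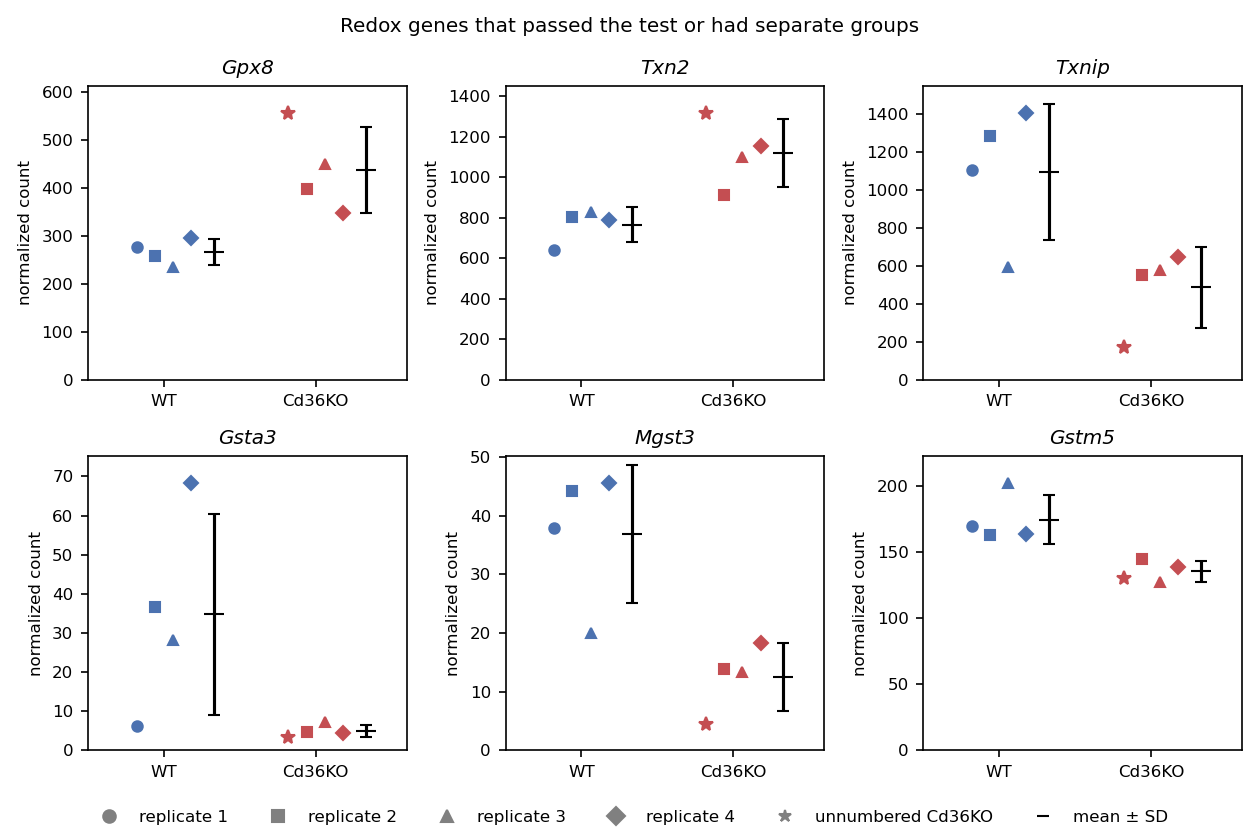
Normalized counts in each library for the 5 genes past the DESeq2 threshold and for Gstm5, with WT in blue, Cd36KO in red, a marker shape per replicate number and the mean ± SD in black. The 4 Cd36KO libraries sit apart from the 4 WT libraries for Gpx8, Txn2, Mgst3 and Gstm5 and overlap them for Txnip, where WT replicate 3 had 594, and for Gsta3, where WT replicate 1 had 6.32.

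All 4 glutaredoxins had positive values, with a median log2 fold change of 0.31, and none passed. Glrx5, which hands over iron-sulfur clusters in mitochondria, had 532, 589, 566 and 874 normalized counts in WT. In Cd36KO it had 1065 in the unnumbered library and 814, 851 and 775 in replicates 2 to 4. WT replicate 4 was the WT library inside the Cd36KO range. This gave 0.45 as log2 fold change (SE 0.20, DESeq2 adjusted p = 0.208). Without WT replicate 4 it was 0.64 (adjusted p = 0.00416), the single one of 16 alternatives past the threshold, and it was 0.35 without the unnumbered library and 0.27 over the 6 libraries numbered 2 to 4. Glrx, the cytosolic form, had 0.41 (SE 0.31), Glrx3 0.21 (SE 0.23) and Glrx2, a mitochondrial and nuclear form, 0.14 (SE 0.21).

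Genes that make and recycle glutathione split evenly in sign and none passed. Gclm, the modifier subunit of the rate-limiting ligase, had 86.7, 104, 106 and 53.4 normalized counts in WT. In Cd36KO it had 85.8 in the unnumbered library and 112, 64.4 and 93.0 in replicates 2 to 4. Both groups covered much the same range, and the log2 fold change was 0.02 (SE 0.27, DESeq2 adjusted p = 0.983). Gclc, the catalytic subunit, had -0.11 (SE 0.32). Gss, which completes glutathione, was 52.4 to 59.3 normalized counts in WT and 58.7 to 82.9 in Cd36KO, with a log2 fold change of 0.39 (SE 0.24, exact two-sided permutation p = 0.0571). It overlaps Acss2 on the opposite strand. Gsr, which reduces oxidized glutathione, had 12.9 to 23.8 in WT and 2.23 to 17.5 in Cd36KO, with -1.08 (SE 0.60, DESeq2 adjusted p = 0.377). Gsr had 2 to 28 counts per library, and its groups overlapped.

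Of the 11 cytosolic and kappa glutathione transferases, 10 had an adjusted p, and Gsta3 alone passed. Gsta3 (ENSMUSG00000025934, chromosome 1, 21240589 to 21265661, plus strand, protein-coding), an alpha-class enzyme, had 6.32, 36.5, 28.2 and 68.3 normalized counts in WT replicates 1 to 4. The unnumbered Cd36KO library had 3.34, and replicates 2 to 4 had 4.60, 7.16 and 4.58. WT replicate 1 lay below Cd36KO replicate 3, and the remaining WT libraries were well above all Cd36KO libraries. The mean went from 34.8 ± 25.7 to 4.92 ± 1.6 (SD, n = 4 each), a ratio of 0.142. The estimated log2 change was -2.82 (SE 0.64, DESeq2 adjusted p = 0.00259), the largest fall among the members, and it rested on 3 to 7 counts in each Cd36KO library. The exact two-sided permutation p was 0.0571. Gsta3 was under the expression filter of edgeR and was not tested there. It passed in all 8 alternatives that gave it an adjusted p (-3.36 to -2.68, adjusted p 1.39e-06 to 0.0315), and 3 of 8 leave-one-out fits gave none. Without WT replicate 1 the fold change was -3.17. WT replicate 1 was also the WT library with the lowest sum of white fat markers, 812 normalized counts, close to the Cd36KO range.

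**Figure D3:**
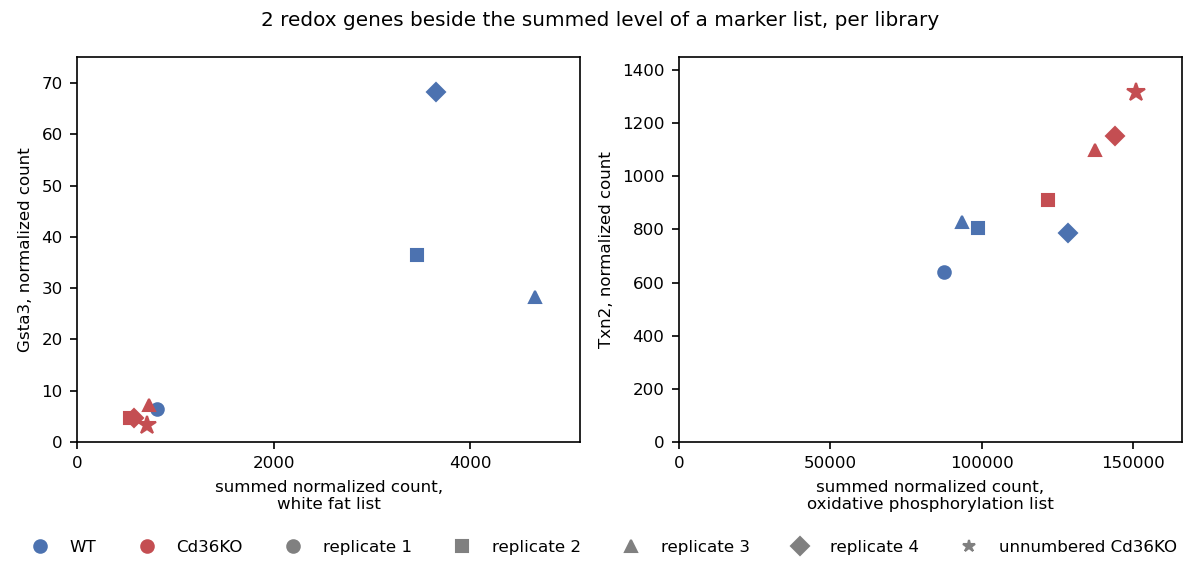
Normalized count of Gsta3 against the summed normalized count of the white fat list (left) and of Txn2 against that of the oxidative phosphorylation list (right), 1 point per library, WT blue and Cd36KO red. Gsta3 and the white fat sum were both low in WT replicate 1 (6.32 and 812) as in the 4 Cd36KO libraries, and Txn2 and the oxidative phosphorylation sum were both highest in the unnumbered Cd36KO library (1318 and 150975).

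Gstm5 had 170, 163, 202 and 164 normalized counts in WT replicates 1 to 4. Cd36KO had 130 in the unnumbered library, and replicates 2 to 4 had 145, 128 and 139. The groups did not overlap, but the difference was small, a ratio of 0.777. The change from WT was -0.36 on the log2 scale (SE 0.17, DESeq2 adjusted p = 0.276), past the threshold in none of 16 alternatives. Mu-class genes are related copies in a cluster, and how far they share reads was not measured. An antisense gene at Gstm5 (4933431E20Rik) had 118 counts in all. Gstm1, Gstm2 and Gstm4 had log2 fold changes of 0.11, 0.03 and 0.07. Gsta4, which handles lipid peroxidation aldehydes, had 0.50 (SE 0.25, DESeq2 adjusted p = 0.299), Gstk1, a mitochondrial and peroxisomal form, 0.36 (SE 0.28) and Gsto1 0.32 (SE 0.22). Gstt2 had 0.07 and Gstt1 -0.57 (SE 0.34, adjusted p = 0.435).

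The 3 microsomal glutathione transferases, membrane proteins that act on lipid peroxides and leukotrienes, all had negative values with a median of -1.5, and Mgst3 passed. Mgst3 (ENSMUSG00000026688, chromosome 1, 167371966 to 167393841, minus strand, protein-coding) had 37.9, 44.2, 19.99 and 45.5 normalized counts in WT replicates 1 to 4. The unnumbered Cd36KO library had 4.46, and replicates 2 to 4 had 13.8, 13.3 and 18.3. The groups did not overlap, with WT replicate 3 just above Cd36KO replicate 4. The mean went from 36.9 ± 11.7 to 12.5 ± 5.79 (SD, n = 4 each), a ratio of 0.342. This gave -1.55 as log2 fold change (SE 0.44, DESeq2 adjusted p = 0.0277, edgeR adjusted p = 0.119, exact two-sided permutation p = 0.0286). The call was lost without WT replicate 1 (0.0536), WT replicate 2 (0.188) or the unnumbered library (0.146), was kept in 2 of the 5 leave-one-out fits that gave an adjusted p, and had none in the other 3. Over all settings, the adjusted p of the 11 alternatives that gave one ran from 0.0148 to 0.634. Mgst2 had 9.93, 27.2, 24.7 and 24.7 in WT and 5.57, 10.4, 6.14 and 8.39 in Cd36KO. WT replicate 1 was again the low WT library, and the log2 fold change of -1.5 (SE 0.51) did not pass (DESeq2 adjusted p = 0.0762). Mgst1, far more abundant at 114 normalized counts per kilobase, had -0.31 (SE 0.22).

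The regulators did not pass. Keap1, the adaptor that marks NRF2 for degradation, had 209, 311, 253 and 318 normalized counts in WT. In Cd36KO it had 371 in the unnumbered library and 267, 300 and 316 in replicates 2 to 4. The groups overlapped, with a log2 fold change of 0.20 (SE 0.19, DESeq2 adjusted p = 0.681), which was 0.09 without WT replicate 1 and 0.11 without the unnumbered library. Nfe2l2 had 212 to 266 in WT and 175 to 220 in Cd36KO, with -0.24 (SE 0.17, adjusted p = 0.530). Nqo1, the quinone reductase often used as a readout of NRF2, had 1 to 6 counts per library, too few for a comparison at this depth. Of the NRF2-linked partners Bach1, Mafg, Mafk, Maff, Cul3 and Sqstm1, 5 had an adjusted p and none passed.

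Aldh2, the mitochondrial enzyme that clears acetaldehyde and lipid aldehydes, had 1071, 2695, 3127 and 2694 normalized counts in WT. In Cd36KO it had 3155 in the unnumbered library and 2216, 2490 and 2714 in replicates 2 to 4. WT replicate 1 was the low library and the rest overlapped. The estimated log2 change was 0.14 (SE 0.27, DESeq2 adjusted p = 0.866), and -0.10 without WT replicate 1. Msra, which repairs oxidized methionine, had 0.29 (SE 0.25), and the selenoprotein Msrb1, which repairs the other stereoisomer, -0.35 (SE 0.33).

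Grouped by where the products mainly work, in lists drawn up by hand, the 9 mitochondrial members (Sod2, Prdx3, Prdx5, Txn2, Txnrd2, Glrx2, Glrx5, Gstk1 and Aldh2) gave 8 positive values and a median log2 fold change of 0.36, with Txn2 as the one call. Without WT replicate 1, those followed library by library were lower, Txn2 at 0.47, Glrx5 at 0.37, Prdx5 at 0.32 and Aldh2 at -0.10. The median of the list was not taken in that fit. Several products of the 9 listed genes also work elsewhere, and the values depend on which genes with products in several places are listed. With Gpx1, part of whose product is mitochondrial, the list had 8 positive values of 10 and a median of 0.25. Among genes left out of both versions, Gpx4, Gsr and Mgst1 were negative (-0.07, -1.08 and -0.31) and Msra was positive (0.29). The 39 other members gave 21 positive values of 37 with an adjusted p, a median of 0.07, and 4 calls. Nuclear genes of oxidative phosphorylation, 46 in all, had 39 positive values, a median of 0.41 and 11 calls, all higher. Their summed level was 87466, 98600, 93371 and 128305 normalized counts in WT replicates 1 to 4. It was 150975 in the unnumbered Cd36KO library and 121866, 137217 and 143967 in replicates 2 to 4 (exact two-sided permutation p = 0.0571). Whether the mitochondrial members moved apart from that list was not tested. The 6 selenoproteins (Gpx1, Gpx3, Gpx4, Txnrd1, Txnrd2 and Msrb1) had 2 positive values, a median of -0.13 and no call. The 5 secreted or secretory members (Sod3, Gpx3, Gpx7, Gpx8 and Prdx4) had 4 positive values, a median of 0.25 and Gpx8 as the one call. With the 3 microsomal transferases, also membrane proteins of the endoplasmic reticulum, there were 4 positive values of 8, a median of -0.025, and Mgst3 as a second call, lower.

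A wider list of 78 redox genes outside the 48 was read the same way, and 63 had an adjusted p. Of these, 3 passed (4.76%, beside 2.95% of all genes), Ccs and Idh2 higher and Aldh1a1 lower, and the median was 0.06. Idh2, which makes NADPH in mitochondria, had 830, 787, 892 and 797 normalized counts in WT and 1242, 1176, 1620 and 924 in Cd36KO. The groups did not overlap, and the log2 fold change was 0.59 (SE 0.18, DESeq2 adjusted p = 0.0443, edgeR adjusted p = 0.170). Its cytosolic counterpart Idh1 had -0.61 (SE 0.29, adjusted p = 0.266). Aldh1a1, a retinaldehyde dehydrogenase that is also on the white fat list used here and that the study itself follows, averaged 84.2 ± 22.6 in WT against 23.9 ± 9.61 normalized counts in Cd36KO (SD, n = 4 per genotype). Its log2 fold change was -1.81 (SE 0.34, DESeq2 adjusted p = 8.09e-05), and it was the one wider gene past the edgeR threshold (adjusted p = 0.0394). Cat, which encodes catalase, had 496 to 1159 in WT and 739 to 1037 in Cd36KO, with -0.04 (SE 0.24). Nnt, another source of mitochondrial NADPH, had 1 to 5 counts in every library of both groups, and the C57BL/6J substrain is known for a deletion in this gene. None of the 10 other selenoprotein and selenium genes tested passed, nor did any of 4 genes for glutathione precursors and breakdown, 4 metallothionein and methionine repair genes or 6 genes of superoxide and peroxide producers.

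The WT libraries differed among themselves in these genes. Relative to each gene's mean over the 8 libraries on the log2(normalized count + 1) scale, the median deviation of the 39 members with a mean of at least 50 was -0.48 in WT replicate 1, 0.02 in WT replicate 2, -0.13 in WT replicate 3 and 0.25 in WT replicate 4. In Cd36KO it was 0.21 in the unnumbered library and -0.02, 0.05 and 0.12 in replicates 2 to 4. WT replicate 1 was the lowest of all libraries in 22 of the 39 members, and WT replicate 4 the highest in 15. Both extremes thus lay within the WT group. WT replicate 1 also held the largest sum of muscle markers, 85064 normalized counts, and the members' median fold change was 0.0048 without it. The part of the muscle markers in these values was not tested.

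**Figure D4:**
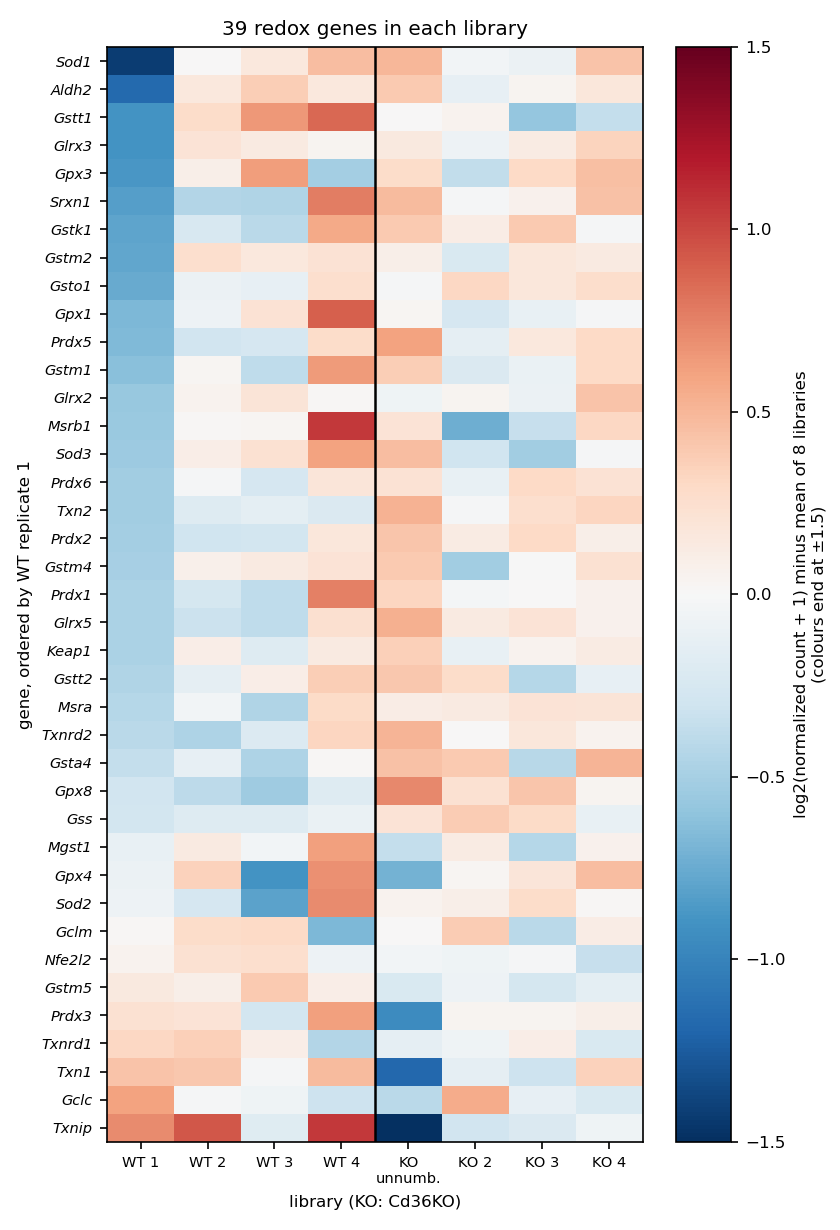
Deviation of 39 genes (rows) in each of 8 libraries (columns) from the gene's mean, as log2(normalized count + 1), with red above and blue below the mean and the groups parted by a black line. The WT replicate 1 column is mostly blue, with a median of -0.48, and Txnip (bottom row) is darkest in the unnumbered Cd36KO library.

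In the alternatives that gave an adjusted p, the 5 calls kept their direction. Gsta3 passed in all 8 such alternatives, while the other calls moved across the threshold. The count of members past 0.05 was 0 with edgeR and with limma on the authors' log2 values, where 10 and 11 of 45 had an unadjusted p under 0.05, and between 1 and 8 when a library was left out. It was 8 without WT replicate 4, all higher, and 1 without WT replicate 2, Cd36KO replicate 3 or the unnumbered library. The calls over all genes moved too, to 507 of 6215 without WT replicate 4 and to 69 of 10170 without WT replicate 2. They were 132 of 6867 without Cd36KO replicate 3 and 113 of 10518 without the unnumbered library.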

How the data were processed

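Bulk RNA-seq of BAT was available for 4 WT and 4 Cd36KO libraries, grouped by the genotype label. The deposited values are whole-number counts per gene. The study's methods name bbduk, STAR, the mm10 genome, HTSeq-count and DESeq2, whereas the submitters' processing notes name Trimmomatic, HISAT2, DESeq2 and GRCm38. Strand setting, annotation and use of molecular identifiers are not given in the sources used here, so overlapping, antisense and closely related genes are less certain. The authors also deposited log2 values, which were checked to equal log2 of the normalized count plus 1. Total counts ranged from 2679785 to 4097953 per library, and intervals from such totals would cover counting error only. Every pair of libraries differed beyond sampling noise.

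Genes were tested with DESeq2 1.42.0 in R 4.3.3 (genotype only, Wald test, median-of-ratios factors, Benjamini-Hochberg threshold 0.05). The study's methods name another version of DESeq2 and the same threshold. Fold changes are unshrunken. The edgeR 4.0.16 quasi-likelihood test (TMM factors, filterByExpr) was the first alternative, and limma 3.58.1 with a mean-variance trend was run on the authors' log2 values. Single genes and summed markers were tested by an exact two-sided permutation test over 70 arrangements (SciPy 1.17.1) on log2 of the value plus 1. Further alternatives were DESeq2 with TMM factors, without independent filtering or with only genes of at least 10 counts in 4 libraries, muscle or white fat score as covariate, the replicate number as a block, and each library left out in turn. On simulated data, 200 genes above a minimum mean count were changed 3-fold between groups of this size. DESeq2 recovered 91.5% of them among 16750 genes, with 10.7% of its calls false. The figures were 90.5% among 9923 and 4.23% for edgeR, and 91% among 9964 and 6.67% for limma. Smaller changes, such as the 1.46-fold and 1.64-fold ones of Txn2 and Gpx8, were not simulated. Neither was a library that stood apart from its group, so recovery in the real data was not measured.

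The members, the wider list and the marker lists were chosen with earlier results of these data known. Genes given library by library are members past the DESeq2 threshold, members with a mean of at least 50 normalized counts and groups that do not overlap, and otherwise the most abundant member of each of 10 role lists. Other members are given by fold change, and any values of single libraries or ranges printed for them (such as for Mgst2, Txn1, Prdx2 and Prdx3) were chosen after their values were seen. Wider genes named are those past the threshold, with Nnt and Cat, and others named were chosen after their values were seen. Symbols and coordinates come from GENCODE M21 on GRCm38 (30934 identifiers matched), promoter sequences from RefSeq on GRCm38.p6. Figures were drawn with matplotlib 3.10.9.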

Additional observations from a re-analysis of the deposited data

Results flagged for a closer look

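In 92 groups of 4 libraries (members with a mean of at least 10 normalized counts), a single library stood apart from the other libraries of its group by Dixon's criterion in 10, where chance gives about 4.6. All values are normalized counts and no cause was tested. WT replicate 1 was low in 4 groups, for Glrx3 at 231 (others 441 to 495), Gstm2 at 204 (others 393 to 418), Mgst2 at 9.93 (others 24.7 to 27.2) and Aldh2 at 1071 (others 2694 to 3127). The unnumbered Cd36KO library was low for Prdx3 at 65.7 (others 131 to 135) and Txnip at 175 (others 552 to 648), and high for Gpx7 at 25.6 (others 12.3 to 13.7). WT replicate 3 was low for Txn1 at 192 (others 258 to 270). Cd36KO replicate 3 was low for Gsta4 at 84.9 (others 150 to 162), and Cd36KO replicate 4 was low for Nfe2l2 at 175 (others 213 to 220).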

How the results depend on the processing

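Of all genes, 284 passed the DESeq2 threshold. The count was 14 with edgeR (1580 at an unadjusted p under 0.05), 171 with independent filtering off, 184 with the muscle score as covariate, 441 with the white fat score, 0 with limma (1556 at an unadjusted p under 0.05), and from 69 to 507 with a library left out. Members past the threshold numbered 5 (2 higher, 3 lower). They were 0 (0 higher, 0 lower) with edgeR and with limma, 3 with TMM factors (1 lower, since fewer genes kept an adjusted p), 3 with independent filtering off (1 higher), 2 with the muscle score (1 higher, 1 lower), and 7 higher and 0 lower with the white fat score, where the median log2 fold change of members was 0.85. With a library left out they were from 1 to 8, from 0 to 8 higher and from 0 to 3 lower, and the median from 0.0048 to 0.21. That score (mean log2 level) was 5.22 to 5.51 in WT replicates 2 to 4, 4.12 in WT replicate 1 and 3.26 to 3.52 in Cd36KO, so score and genotype can hardly be told apart in it. In that fit Sod1 (2.58), Prdx5 (1.32) and Aldh2 (2.12) passed. The fold change of Gclm turned to -0.044 with the muscle score, -0.15 without WT replicate 4, -0.10 without Cd36KO replicate 2 and -0.0026 without Cd36KO replicate 4, and that of Aldh2 to -0.10 without WT replicate 1. With a library left out, the highest values were 0.15 for Gclm and 0.30 for Aldh2. Where no cause is stated, the cause was not tested. The share of member promoters with the antioxidant core was 15.4% upstream of the start alone, against 17.3%.

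Whether the replicate numbers pair the libraries was not settled. The correlation of deviations was -0.13, 0.42 and 0.14 for numbers 2, 3 and 4. Libraries of different numbers were not correlated, so these values have no reference. With the replicate block, over 6 libraries, members past the threshold were 1 (0 higher, 1 lower), the median was -0.013, Sod1 was at -0.10 and Aldh2 at -0.20. The same 6 libraries with no block, a fit chosen after seeing the data, gave 2 (0 higher), a median of -0.056, Sod1 at -0.098 and Aldh2 at -0.20.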
